A study of Mus musculus with 8 samples.

Results

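The 10 genes described here were Trp53, Trp63, Trp73, Mdm2, Bax, Bbc3, Pmaip1, Bcl2, Bcl2l1 and Mcl1, chosen by name as the p53 family and genes of BCL2-dependent apoptosis. They were 10 of 31010 genes in a table of RNA-seq values from germline stem (GS) cells, and all 10 symbols were found in it. GS cells are cultured mouse spermatogonia with stem cell activity, which depend on GDNF and FGF2 for self-renewal. The control group held 4 lines (29, 37, 44 and 45) from F1 males sired by natural mating, and the ICSI group held 4 lines (11, 17, 20 and 21) from F1 males conceived by intracytoplasmic sperm injection (ICSI), the placing of a sperm into an oocyte. All lines are labelled as wild type, B6 and untreated, and were grown in the same kind of medium. The study's methods took sperm for ICSI from green mice, which carry an Egfp transgene, whereas the labels mention no transgene. The study's methods derive such lines from CD9-selected testis cells of mature males and plate the cells briefly on gelatin before RNA extraction, to remove the embryonic fibroblasts that serve as feeders. The labels do not give the mouse or litter of each line. The study's supplement lists F1 animals under the same numbers, so the lines are likely from different mice, and litters are not named there. Here n counts lines, and each p-value measures the spread between lines. The comparison of the groups addressed whether ICSI left a change in the germline of the offspring.

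The 8 sample titles were written in 2 styles. The titles of control lines 29 and 37 and of ICSI lines 11 and 17 were hyphenated, whereas those of control lines 44 and 45 and of ICSI lines 20 and 21 were free of hyphens. The submitters' processing notes name other versions of the mapping and counting tools for each style. The title style was therefore treated as a possible technical batch, with 2 lines of each group in each style. Reads recovered from the values numbered 24712998 to 44287316 per line and were fewer in each hyphen line than in any hyphen-free line. The germ cell gene Ddx4 was at 224 ± 34.4 FPKM (SD, n = 8), and the spermatogonial genes Zbtb16 and Gfra1 were at 61.8 ± 10.2 and 54.5 ± 16.6 FPKM. FPKM is the number of reads per kilobase of exon, scaled to the size of the library. Summed over 14 markers of differentiating and meiotic germ cells, the level was 490 to 586 FPKM. Sohlh1, at a mean of 120 FPKM, was the highest of these, and Prm1 was at 0 in all lines. Fibroblast genes were also present in all lines, with Col1a1 at 28.7 to 136 FPKM, Col1a2 at 12.3 to 88.8 FPKM and Fn1 at 61.8 to 148 FPKM. Summed over 15 markers of testis somatic cells, the level was 9.35 to 18.3 FPKM. This sum includes Acta2, which is also a fibroblast marker, at 1.13 to 10.5 FPKM and highest in control line 29. In bulk RNA, fewer cells of a type and less RNA per cell cannot be told apart.

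p53, the product of Trp53, is a transcription factor that accumulates after DNA damage and turns on genes for cell cycle arrest, repair and apoptosis. MDM2 is a ubiquitin ligase that marks p53 for degradation, and its gene is itself turned on by p53, so the pair forms a feedback loop. Among other p53 targets, BBC3 (PUMA) and PMAIP1 (NOXA) are BH3-only proteins that block anti-apoptotic proteins of the BCL2 family, though not all the same ones. The anti-apoptotic proteins include BCL2, BCL-XL (from Bcl2l1) and MCL1, and BAX, from another target, forms the pore in the outer mitochondrial membrane. In the testis, germ cells are removed by apoptosis in normal development and after irradiation, and Bax is needed for normal spermatogenesis. Much of the control of p53 and MDM2 acts on the proteins, which RNA levels do not measure.

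The promoters of the genes were searched for the p53 half-site, because Bax and Mdm2 are classical p53 targets and the feedback of p53 on Mdm2 runs through its DNA binding. The windows, from RefSeq on build GRCm38.p6, ran from 250 bases before to 50 bases after each start site, and both strands were searched for the 10-base half-site consensus. At least one window was available for 8 of the 10 genes, and Trp63 and Pmaip1 were the others. A match was found in 3 of 13 windows, and in 2745 of all 32851 windows of this length (8.36%). The 3 matches lay in promoters of Bax, Mdm2 and Trp53. Each is shown 5′ to 3′ on the gene's own strand with 25 flanking bases on either side, and capitals mark the match. In Bax the match began 201 bases before the start site (chr7:45467065-45467124, minus strand), in Mdm2 186 bases before it (chr10:117710910-117710969, minus strand) and in Trp53 75 bases before it (chr11:69580259-69580318, plus strand).
Bax: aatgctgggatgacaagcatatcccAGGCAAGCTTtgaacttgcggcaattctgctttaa
Mdm2: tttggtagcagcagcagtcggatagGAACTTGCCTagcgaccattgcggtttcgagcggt
Trp53: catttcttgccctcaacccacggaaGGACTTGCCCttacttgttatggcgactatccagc
A match is a description of the letters and does not show that p53 bound there. The windows do not reach into introns or to other start sites that were not listed.

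Of the 10 genes, 6 were expressed well above the rest. Bax had the highest mean over the 8 lines, at 70.9 FPKM, followed by Mdm2 at 46.5, Mcl1 at 41.1, Pmaip1 at 32.1, Trp53 at 24.4 and Bcl2l1 at 16.9 FPKM. These lay between the 85.2 and 97.7 percentiles of the 23964 genes detected in at least one line. Bbc3 followed at 1.85 FPKM, and Trp63, Trp73 and Bcl2 had means of 0.254, 0.130 and 0.0918 FPKM. The ranges of neighbours in this order did not overlap between Bax and Mdm2, between Bcl2l1 and Bbc3 and between Bbc3 and Trp63. The other neighbours overlapped in range, although Mdm2 exceeded Mcl1 and Trp53 exceeded Bcl2l1 within each of the 8 lines. Pmaip1 exceeded Trp53 in 6 of 8 lines, so their order was not the same in every line.

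**Figure D1:**
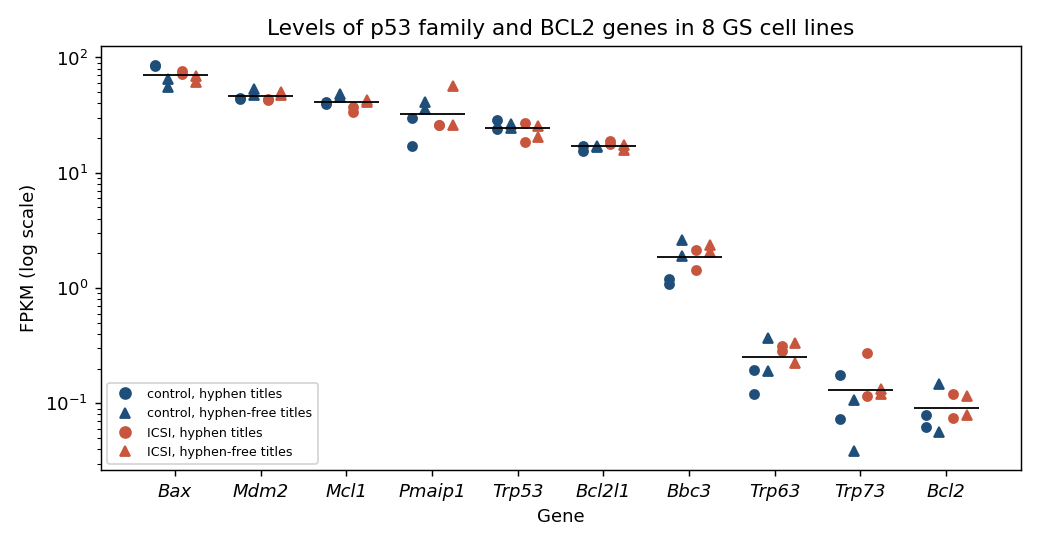
Each point is the FPKM of one gene (horizontal axis) in one line, on a logarithmic vertical axis, with controls in blue, ICSI lines in red, circles for hyphen titles and triangles for hyphen-free titles; black bars are means over 8 lines. Bax to Bcl2l1 lie between 15.6 and 85.7 FPKM, Bbc3 between 1.08 and 2.63, and Trp63, Trp73 and Bcl2 below 0.37.

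Trp53 (ENSMUSG00000059552, chr11:69580359-69591873, GRCm38) was at 24.2, 28.8, 26.6 and 24.4 FPKM in control lines 29, 37, 44 and 45, and at 27.0, 18.5, 20.2 and 25.6 FPKM in ICSI lines 11, 17, 20 and 21. The lowest values were those of ICSI lines 17 and 20, whereas ICSI lines 11 and 21 lay within the control range. Control lines averaged 26.0 ± 2.17 FPKM, whereas ICSI lines averaged 22.8 ± 4.14 FPKM (SD, n = 4 each).

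The other p53 family genes were detected at low levels in every line. Trp63 (ENSMUSG00000022510, chr16:25683763-25892102), best known for epidermal development and for the quality control of oocytes, was at 0.194, 0.119, 0.368 and 0.192 FPKM in the control lines and 0.285, 0.317, 0.335 and 0.225 FPKM in the ICSI lines, from 25 to 101 reads. Trp73 (ENSMUSG00000029026, chr4:154056253-154140208) was at 0.177, 0.0724, 0.0386 and 0.106 FPKM in the control lines and 0.117, 0.275, 0.134 and 0.120 FPKM in the ICSI lines, from 7 to 43 reads. For both genes 3 of the 4 control lines were below all ICSI lines, and the other, control line 44 for Trp63 and control line 29 for Trp73, made the groups overlap. Trp73 shares 280 exon bases with the antisense gene Trp73os, which reached at most 0.0172 FPKM. Reads per line were so few that counting error alone gave a coefficient of variation of 13.0% for Trp63 and 23.7% for Trp73, against 33.5% and 55.0% between lines.

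Mdm2 (ENSMUSG00000020184, chr10:117688875-117710758) was among the most even of the 10 genes. It was at 44.5, 43.5, 53.1 and 47.5 FPKM in the control lines and at 43.8, 42.5, 47.0 and 50.0 FPKM in the ICSI lines, a coefficient of variation of 7.87%. In both groups the 2 hyphen-free lines were the higher ones. The ratio of Mdm2 to Trp53 FPKM was 1.51 to 2.00 in the control lines and 1.62 to 2.32 in the ICSI lines, highest in ICSI lines 17 and 20, where Trp53 was lowest.

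Of the pro-apoptotic genes, Bax (ENSMUSG00000003873, chr7:45461697-45466898) was at 85.7, 84.0, 55.5 and 65.0 FPKM in the control lines and at 76.2, 71.5, 68.5 and 60.9 FPKM in the ICSI lines. All 4 hyphen lines were above all 4 hyphen-free lines. Within the hyphen lines both controls were above both ICSI lines, whereas within the hyphen-free lines the groups overlapped. Bax shares 192 of its 1576 exon bases with a protein-coding gene on the same strand, Gm45808, which has no entry by that name among the values. How reads from the shared bases were counted was not tested. Bbc3 (ENSMUSG00000002083, chr7:16308393-16318205) was at 1.21, 1.08, 2.63 and 1.88 FPKM in the control lines and at 2.13, 1.44, 2.07 and 2.38 FPKM in the ICSI lines. Its 2 lowest values were those of the hyphen control lines. Pmaip1 (ENSMUSG00000024521) was at 17.2, 29.9, 35.4 and 40.8 FPKM in the control lines and at 25.9, 26.1, 56.0 and 25.8 FPKM in the ICSI lines. ICSI line 20 had more than any other line, the remaining ICSI lines lay within 0.4 FPKM of one another, and control line 29 had the least.

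Among the anti-apoptotic genes, Mcl1 was the highest, Bcl2l1 was lower and Bcl2 was detected at a low level in every line. Mcl1 (ENSMUSG00000038612, chr3:95658788-95663176), which encodes a short-lived survival protein, was at 39.7, 40.8, 48.5 and 45.2 FPKM in the control lines and at 37.2, 33.5, 40.7 and 43.0 FPKM in the ICSI lines. Within each title style both ICSI lines were below both control lines, and across styles the groups overlapped. The share of all genes with such a pattern within styles is not given, so this only describes 2 lines against 2. Bcl2l1 (ENSMUSG00000007659, chr2:152780668-152831728) was at 17.0, 15.6, 16.8 and 17.0 FPKM in the control lines and at 18.7, 17.6, 17.2 and 15.6 FPKM in the ICSI lines. Its coefficient of variation, 6.04%, was the lowest of the 10 genes, against 2.06% from counting error. Bcl2 (ENSMUSG00000057329, chr1:106538178-106714274) was at 0.0619, 0.0788, 0.147 and 0.0569 FPKM in the control lines and at 0.0747, 0.120, 0.116 and 0.0792 FPKM in the ICSI lines, from 15 to 44 reads. The groups overlapped, and counting error alone gave a coefficient of variation of 20.5% against 34.8% between lines. An antisense gene with which Bcl2 shares 558 exon bases, D630008O14Rik, was listed at 0 in all lines.

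Mcl1 made up 65.4% to 74.1% of the summed FPKM of Mcl1, Bcl2l1 and Bcl2. The ratio of Bax to this sum was 1.51, 1.49, 0.848 and 1.04 in the control lines and 1.36, 1.40, 1.18 and 1.04 in the ICSI lines. Its mean was 1.22 ± 0.328 in controls and 1.24 ± 0.167 in ICSI lines, and 1.44 ± 0.0709 in hyphen lines against 1.03 ± 0.136 in hyphen-free lines (SD, n = 4 each). With Bbc3 and Pmaip1 added to Bax, the ratio was 1.83 to 2.04 in hyphen and 1.43 to 2.18 in hyphen-free lines, so the styles overlapped. The ratios are descriptions of RNA and were not tested.

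None of the 7 genes that could be tested passed the test between ICSI and control lines. The test was limma on log2(FPKM + 1), run on the 12000 genes that averaged 1 FPKM or more, with Benjamini-Hochberg adjustment. It called 0 of the 7 genes and 0 of all genes (background 0%), and 55 of all genes had an unadjusted p under 0.05 (0.458%), none of them among the 7. The count of called genes among the 7 was also 0 with limma-voom on the recovered reads. Each of the 7 had an adjusted p of 1.00. For none of the 10 genes were the values of the groups without overlap, as compared with 0.442% of all genes tested.

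The intervals show what sizes of change these 8 lines leave possible. The log2 difference for Trp53 (ICSI minus control) was -0.19 with a 95% confidence interval of -0.50 to 0.12, or 0.708-fold to 1.08-fold on the FPKM + 1 scale, and an exact two-sided permutation test gave p = 0.257. For Mcl1 it was -0.17 (-0.43 to 0.08) with p = 0.143 by the exact permutation test, whose smallest possible p is 0.0286. Mdm2 differed by -0.039 (-0.27 to 0.19), Bax by -0.047 (-0.39 to 0.30) and Bcl2l1 by 0.056 (-0.16 to 0.27). Bbc3 and Pmaip1 were the least precise, with differences of 0.18 (-0.27 to 0.63) and 0.096 (-0.60 to 0.79). With the title style as covariate the differences were the same and the intervals were narrower for all 7 genes. That of Mcl1 then ran from -0.34 to -0.0024 (unadjusted p = 0.0475, adjusted p = 1.00 by limma), and those of the other 6 genes included 0. In this fit 140 of all genes (1.17%) had an unadjusted p under 0.05, and none passed adjustment. The interval of Pmaip1 without the covariate included changes of up to 1.73-fold. The direction for Pmaip1 turned to -0.17 without ICSI line 20 and to -0.15 without control line 29. That for Bax turned to 0.039, 0.030 and 0.012 without control line 29, control line 37 and ICSI line 21, and that for Mdm2 turned to 0.019 without control line 44.

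The 3 genes under the minimum mean were compared by the exact permutation test alone. Trp63 was 1.33 times as high in ICSI lines by group means (p = 0.257), Trp73 was 1.64 times as high (p = 0.229) and Bcl2 was 1.13 times as high (p = 0.714), all by exact two-sided permutation. These differences were within the spread between lines.

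Within each title style, the ICSI difference of Trp53 was -0.23 in hyphen lines and -0.15 in hyphen-free lines, and that of Mcl1 was -0.19 and -0.16. Mdm2 differed by -0.029 and -0.049. Bax differed by -0.20 in hyphen lines and 0.10 in hyphen-free lines, Bcl2l1 by 0.15 and -0.039, Bbc3 by 0.37 and -0.0064 and Pmaip1 by 0.19 and 0.0030. An interaction term called none of the 7 genes and none of all genes at an adjusted p under 0.05 (background 0%), and 147 of all genes had an unadjusted p under 0.05 (1.23%). No difference between the styles in the effect of ICSI was thus shown for any of the 7 genes.

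**Figure D2:**
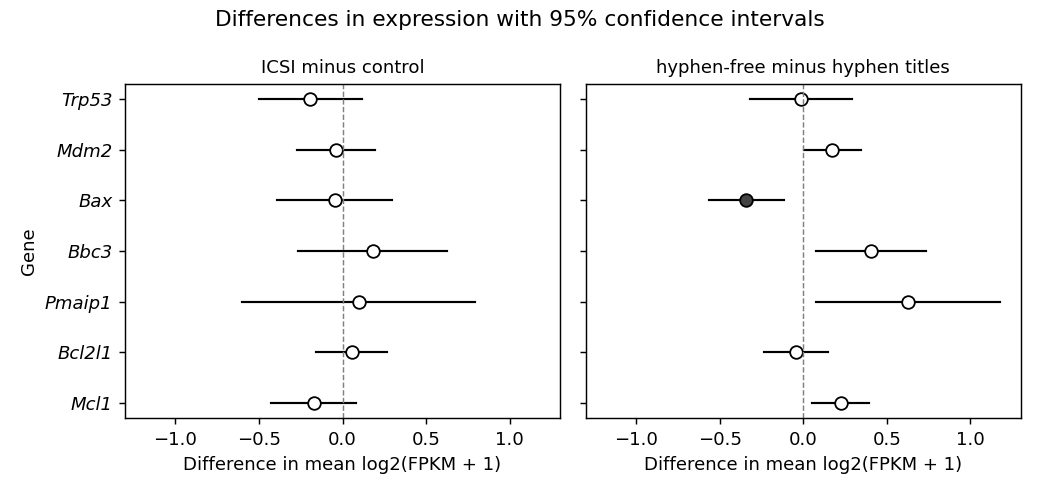
Each circle is the difference in mean log2(FPKM + 1) (horizontal axis) of one gene (vertical axis) between ICSI and control lines (left) or between hyphen-free and hyphen titles (right), with its 95% confidence interval; the filled circle is the one with an adjusted p under 0.05. All 7 intervals on the left, from the fit without the title style, include 0, and on the right Bax lies at -0.34.

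More of the spread lay between the title styles. With the group as covariate, 16.0% of all genes tested passed an adjusted p of 0.05 between hyphen-free and hyphen lines, and 5.76% were called as lower in hyphen-free lines. Bax, at 79.3 ± 6.64 FPKM in hyphen and 62.5 ± 5.58 FPKM in hyphen-free lines (SD, n = 4 each), was the only one of the 7 genes called. Its log2 difference was -0.34 ± 0.098 (SE) with a limma adjusted p of 0.0484. One call among 7 genes is close to the background share. The call was lost without a filter on low values, where the adjusted p was 0.0803, and without any one of the lines but ICSI line 20, with adjusted p-values up to 0.132.

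Mcl1, Mdm2, Bbc3 and Pmaip1 were higher on average in hyphen-free lines and did not pass the adjusted threshold. Mcl1 was at 37.8 ± 3.26 FPKM in hyphen and 44.3 ± 3.32 FPKM in hyphen-free lines, a log2 difference of 0.23 with an adjusted p of 0.0702 by limma. Mdm2 was at 43.6 ± 0.846 and 49.4 ± 2.82 FPKM, and its 4 hyphen-free values were above its 4 hyphen values (0.18, adjusted p = 0.128 by limma). Bbc3 was at 1.46 ± 0.469 and 2.24 ± 0.333 FPKM (0.41, adjusted p = 0.0847 by limma), and Pmaip1 was at 24.8 ± 5.41 and 39.5 ± 12.6 FPKM (0.63, adjusted p = 0.104 by limma). After quantile normalization the differences of Mcl1 and Mdm2 were smaller, 0.11 (adjusted p = 0.317 by limma) and 0.069 (adjusted p = 0.547 by limma). Without ICSI line 21, Pmaip1 was called instead of Bax, at 0.86 with an adjusted p of 0.0190 by limma. Trp53 and Bcl2l1 differed by -0.011 (95% confidence interval -0.32 to 0.29) and -0.043 (-0.23 to 0.15), and both changed sign in fits that left out 1 line.

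An unadjusted p under 0.05 was reached by 5 of the 7 genes, as compared with 35.4% of all genes tested. Bax and Mdm2 were the genes whose styles did not overlap, 2 of 7 against 26.8% of all genes tested. Other RNAs moved with the title style. The summed level of 16 spermatogonial markers was 961 to 1162 FPKM in hyphen and 1367 to 1681 FPKM in hyphen-free lines, and 8 of them were called as higher in hyphen-free lines and 1 as lower, as compared with 10.2% and 5.76% of all genes. None of 16 was at 0. Of 22 fibroblast markers tested, none was called between the styles, where 16.0% of all genes were. Over the 8 lines, the mean log2(FPKM + 1) of the spermatogonial markers had Pearson's r of 0.82 with Pmaip1 (exact permutation p = 0.0118), 0.79 with Mdm2 (exact permutation p = 0.0192), 0.73 with Mcl1 (exact permutation p = 0.0379) and -0.77 with Bax (exact permutation p = 0.0281). Spearman's rho was 0.76, 0.74, 0.79 and -0.81 (exact permutation p = 0.0368, 0.0458, 0.0279 and 0.0218). Relations with the mean of 12 differentiating and meiotic germ cell markers were also computed, with r from -0.62 for Pmaip1 to 0.36 for Bax. None of the 14 relations with both marker lists passed adjustment, and the adjusted p for Pearson's r was 0.131 or more. For the spermatogonial markers, r without control lines 44 and 29 was 0.87, 0.69, 0.69 and -0.44, in the same order of genes. After the mean of each title style was subtracted, r fell in size to 0.64 for Pmaip1, 0.23 for Mdm2, 0.26 for Mcl1 and -0.18 for Bax. Title style, the tool versions given in the processing notes and sequencing depth went together and cannot be told apart.

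**Figure D3:**
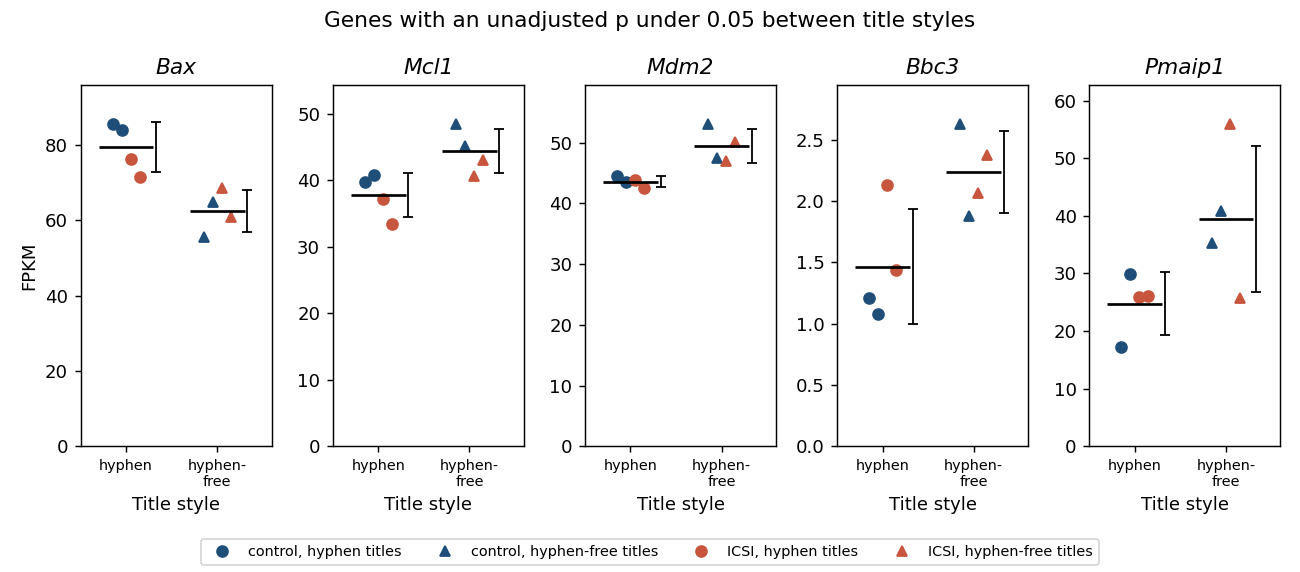
FPKM (vertical axes, from 0) of 5 genes in the 4 hyphen and 4 hyphen-free lines (horizontal axes), with controls in blue and ICSI lines in red; horizontal bars are means and error bars are SD. Bax is lower and Mdm2 higher in every hyphen-free line, whereas Mcl1, Bbc3 and Pmaip1 overlap between the styles.

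Genes that act on p53 were then examined, as a list of 18 p53 regulators and DNA damage kinases. All 18 were tested, and between ICSI and control lines 13 had a higher and 5 a lower mean with 0 called, with a median log2 difference of 0.044 against -0.013 for all genes. Usp7, a deubiquitinase of MDM2 and p53, was the most highly expressed at 70.8 FPKM, with 66.3 ± 11.0 FPKM in controls and 75.3 ± 3.16 FPKM in ICSI lines (0.20 ± 0.13 SE). Prkdc, the catalytic subunit of the DNA-dependent protein kinase, had the largest difference, 0.34 ± 0.26 (SE), from 15.3 ± 3.28 to 20.4 ± 6.70 FPKM. Neither passed the test. Between the title styles 3 of 18 were called, all as higher in hyphen-free lines, which is near the 16.0% of all genes called. These were Atr, the kinase of the replication stress response, at 0.47 (8.07 against 11.5 FPKM), its effector kinase Chek1 at 0.35 (14.3 against 18.5 FPKM), and Rchy1, a ubiquitin ligase that acts on p53, at 0.40 (19.0 against 25.5 FPKM).

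Of 26 p53 target genes, 25 were tested, and 4 had a higher and 21 a lower mean in ICSI lines. None was called, and the median log2 difference was -0.062 as compared with -0.013 for all genes. The SD of this difference over all genes was 0.126. Several targets varied together with the fibroblast markers, as described below, so the 25 were not independent. The split in direction was not tested. Cdkn1a, which encodes the cell cycle inhibitor p21, was at 32.6, 11.9, 40.5 and 12.2 FPKM in the control lines and at 10.1, 16.0, 27.5 and 14.4 FPKM in the ICSI lines (-0.38 ± 0.43 SE). Its groups overlapped widely, since 2 control lines were high and 2 were low. Trp53i11 differed by 0.32 ± 0.49 (SE). Btg2, an antiproliferative gene, was the most highly expressed target, with 56.9 ± 18.5 FPKM in controls and 53.4 ± 10.3 FPKM in ICSI lines. Between the title styles 4 of 25 were called, the same share as among all genes (16.0%). Sertad1 was called as higher in hyphen-free lines (0.74, 16.4 against 28.4 FPKM). Trp53i11 (-1.25), Pidd1, whose product activates caspase-2 (-0.88), and the nuclease gene Aen (-0.35) were called as lower.

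A few p53 targets varied with the fibroblast markers. The mean log2(FPKM + 1) of 23 fibroblast markers was 4.92, 3.35, 4.63 and 2.97 in the control lines and 3.42, 3.89, 4.23 and 3.42 in the ICSI lines. Summed, the markers were at 291 to 1203 FPKM in controls and 366 to 713 FPKM in ICSI lines, none was at 0 in all lines of a group, and 21 of 22 tested had a lower mean in ICSI lines. Over the 8 lines, 32 relations with this level were computed, for 7 of the 10 genes and 25 targets. This was done after the values of Cdkn1a had been seen. None of the 7 genes passed the adjusted threshold, with Pearson's r from -0.24 for Trp53 to 0.18 for Mdm2. Without control lines 29 and 44, r ranged from -0.71 for Trp53 and -0.52 for Mcl1 to 0.34 for Pmaip1, and after subtraction of each style's mean from -0.24 for Trp53 to 0.47 for Mdm2.

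Of the 25 targets, 4 passed for Pearson's r and 1 for Spearman's rho, with p-values from exact permutation of the pairings. Over all 25, r was positive for 18 and negative for 7, down to -0.66 for Apaf1 and -0.54 for Ddb2. Phlda3, a repressor of AKT, had r = 0.980 (exact p = 4.96e-05, adjusted p = 0.00159) and Spearman's rho = 0.976 (exact p = 0.000397, adjusted p = 0.0127). The death receptor gene Fas had r = 0.931 (exact p = 0.00196, adjusted p = 0.0214), Cdkn1a r = 0.924 (exact p = 0.00201, adjusted p = 0.0214) and Btg2 r = 0.880 (exact p = 0.00536, adjusted p = 0.0429). For these 3, rho was 0.881 (exact p = 0.00724, adjusted p = 0.0579). Without control lines 29 and 44, r was 0.971 for Phlda3, 0.859 for Fas, 0.840 for Cdkn1a and 0.734 for Btg2. After the mean of each title style was subtracted, r was 0.981, 0.974, 0.987 and 0.913. Of all 12000 genes tested, the markers included, 2.21% had an r as high as that of Btg2 and 0.192% one as high as that of Phlda3. The part of feeder RNA in the levels of these targets was not tested.

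**Figure D4:**
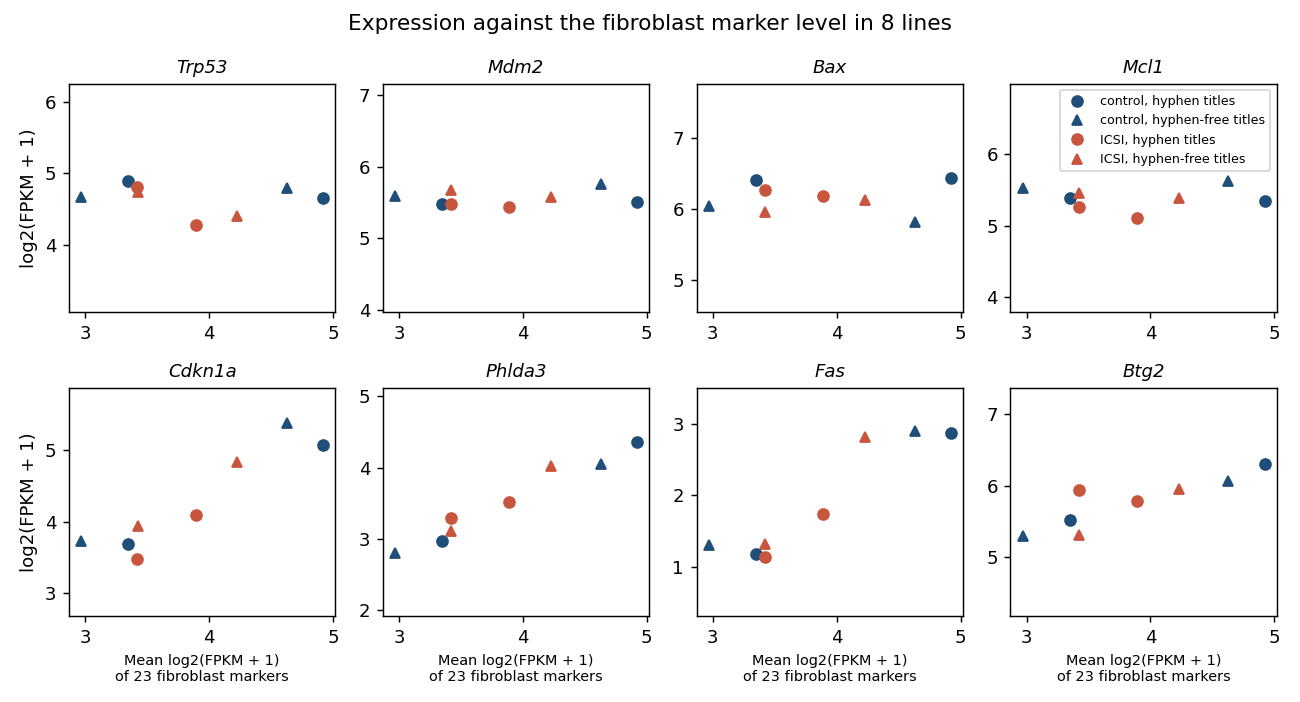
Each point is one line, with the mean log2(FPKM + 1) of 23 fibroblast markers on the horizontal axis and the log2(FPKM + 1) of the named gene on the vertical axis, whose span is the same in all panels. The upper genes (Trp53, Mdm2, Bax, Mcl1) have r from -0.24 to 0.18, and the lower targets (Cdkn1a, Phlda3, Fas, Btg2) have r from 0.880 to 0.980.

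The rest of the BCL2 family varied widely in level. Of 17 further members 10 averaged 1 FPKM or more and were tested, 2 with a higher and 8 with a lower mean in ICSI lines and 0 called. The median log2 difference was -0.086, as compared with -0.013 for all genes, and the split in direction was not tested. Bik, a BH3-only gene, was the highest at 21.3 FPKM and differed by -0.19 ± 0.17 (SE), from 22.7 ± 3.47 to 19.9 ± 3.98 FPKM. Bad, another BH3-only gene, differed by -0.13 ± 0.13 (SE), with 4.39 ± 0.804 FPKM in controls and 3.89 ± 0.117 FPKM in ICSI lines. Between the title styles Bcl2l12 was called, at -0.47 (12.4 against 8.70 FPKM), and no other of the 10, as compared with 16.0% of all genes.

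A list of 19 genes of the apoptosome, caspases and their inhibitors was tested in full. Of these, 9 were higher, 10 lower and 0 called between ICSI and control lines (median -0.0096). Apaf1 was counted among the p53 targets instead. Aifm1, the mitochondrial apoptosis-inducing factor, was the highest at 31.4 FPKM. Htra2, a mitochondrial protease that counters caspase inhibitors, differed by -0.32 ± 0.23 (SE), and control line 29 alone was at 7.95 FPKM while the other 7 lines were at 2.78 to 4.46. The nuclease gene Dffb differed by -0.17 ± 0.25 (SE). Between the title styles 2 of 19 were called, below the 16.0% of all genes. The caspase inhibitor Xiap was called as higher in hyphen-free lines (0.54, 8.77 against 13.2 FPKM), and Dffa, the inhibitor of the Dffb nuclease, as lower (-0.39, 6.97 against 5.09 FPKM).

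The genes whose pattern over the lines was most like that of Trp53 were found by Pearson's r of log2(FPKM + 1) among 12000 genes, after subtraction of each style's mean. Cybc1 (0.953), Dapk3 (0.953) and Otud5 (0.951) were nearest to Trp53. Grrp1 (0.949), St3gal2 (0.938) and Tex261 (0.936) were nearest to Mdm2. These are the extremes of 12000 values over 8 lines that share 2 styles, and are given as a description. Between the 7 genes themselves, after the same subtraction, r was 0.83 for Trp53 and Mcl1 and 0.66 for Mdm2 and Mcl1. It was 0.59 for Bbc3 and Bcl2l1, 0.57 for Trp53 and Mdm2 and 0.049 for Trp53 and Bax. The 3 lowest of the 21 pairs were Bax and Bbc3 (-0.66), Mdm2 and Pmaip1 (-0.58) and Mdm2 and Bax (-0.50). Without the subtraction, r was 0.53 for Trp53 and Mcl1, 0.87 for Mdm2 and Mcl1 and 0.17 for Bbc3 and Bcl2l1. For Trp53 and Mdm2 it was then 0.26, and for Mdm2 and Pmaip1 it changed sign to 0.36.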

How the data were processed

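The authors trimmed single 76-base reads with cutadapt, mapped them to mm10 with STAR, counted them per gene with HTSeq on a GENCODE annotation and deposited FPKM values; the processing notes name STAR 2.7.9a and HTSeq 0.13.5 for hyphen titles and STAR 2.6.0c and HTSeq 0.11.2 for hyphen-free titles. The study's supplement names only STAR 2.7.9a and HTSeq 0.13.5 for all lines, so the versions behind the values of the hyphen-free titles are uncertain. The labels and the methods name different library kits, so strandedness is uncertain. The authors' own columns of fold change and adjusted p-value, from DESeq2, were not used.

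The FPKM of a gene came in steps of 1 read, and exon lengths were taken from an earlier GENCODE release on GRCm38. Where these failed, a length that gave whole reads was fitted. Reads were then whole (within 0.01) for 11996 of 12000 tested genes (99.97%). For 212 of these the length was fitted, so they are whole by construction. A count of 3 reads, the limit that 0 allows, was worth 0.0680 to 0.120 FPKM per kilobase; such limits cover counting error only. Genes averaging 1 FPKM or more were tested on log2(FPKM + 1), a scale that understates changes of low genes, with limma 3.58.1 in R 4.3.3 (trend, two-sided, Benjamini-Hochberg, threshold 0.05). The group was the only term, and the title style was fitted with the group as covariate. Single genes were also tested by exact permutation over 70 assignments. The script was tested on simulated data.

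Alternatives were a pseudocount of 0.1, no filter, rescaling to TPM, quantile normalization, the title style as covariate, limma-voom on recovered reads and leaving out each line. The 10 genes and all lists were chosen with earlier results of these data known. Beside the 10 genes, the text names from each list the 2 with the largest ICSI difference, up to 3 per direction called between styles, the highest, the 3 most like Trp53 and Mdm2, and fixed markers. Phlda3 and Fas were named after their values were seen.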

Additional observations from a re-analysis of the deposited data

Results flagged for a closer look

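In 3 of 20 groups of 4 lines examined, 1 line stood apart from the others by Dixon's 95% limit, which chance passes in about 1 of 20 groups. Pmaip1 was at 56.0 FPKM in ICSI line 20 and at 25.8, 25.9 and 26.1 FPKM in the other ICSI lines. Trp73 was at 0.275 FPKM in ICSI line 17 and at 0.117, 0.120 and 0.134 FPKM in the other ICSI lines, all from few reads. Bcl2l1 was at 15.6 FPKM in control line 37 and at 16.8, 17.0 and 17.0 FPKM in the other control lines.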

How the results depend on the processing

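Without a filter on low values, 0 of the 10 genes were called between title styles instead of 1. Leaving out 1 line at a time gave 0 to 1 called genes between styles, with 0 in 6 of 8 fits. The Bax difference between styles was -0.40 to -0.27 in those fits and -0.48 to -0.34 under the other alternatives. In fits without 1 line, the ICSI difference ranged from -0.17 to 0.039 for Bax, -0.17 to 0.25 for Pmaip1 and -0.081 to 0.019 for Mdm2, and the style difference from -0.12 to 0.087 for Trp53 and -0.086 to 0.0025 for Bcl2l1. Reversed values for the style difference were 0.045, 0.021, 0.087 and 0.047 for Trp53 (without control 37, control 45, ICSI 11 and ICSI 20) and 0.0025 for Bcl2l1 (without ICSI 21). The count of 0 called among the 10 genes between ICSI and control lines held under all 14 alternatives. Without a filter on low values, 1 of all 23964 genes was called, as lower in ICSI lines (limma adjusted p = 0.0389). Among all genes called between styles, 64.0% were higher in hyphen-free lines, against 51.2% after quantile normalization and 47.5% with limma-voom on recovered reads. Their number was 1917, 1255 without a filter and 210 to 2691 without 1 line. No paired analysis was possible because the control and ICSI lines share no replicate number. At most 101 reads a line lay behind Trp63, Trp73 and Bcl2, whose counting error (13.0% to 23.7%) was below their variation between lines (33.5% to 55.0%).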
